A study of Mus musculus with 2 samples.

Results

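Probes named only by a stretch of genome, and not by a gene, were compared between neurospheres that overexpressed the microRNA miR-153 and control neurospheres. They were all non-control probes whose name starts with chr. No probe name started with lincRNA:, the other form searched for. There were 16194 such probes among 55674, in 4610 names that join a region and a strand, over 3543 regions of the mouse build mm9. A name had up to 10 probes of 60 bases each, and every probe was spotted once. Regions had a median length of 7304 bases, with quartiles at 786.5 and 21807 bases.

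The cells were neural stem and progenitor cells (NSPCs) derived from mouse embryonic stem cells by way of embryoid bodies, and both groups were grown as tertiary neurospheres at passage 2 and collected on day 18. The group TNs_control_OE held cells with the control for overexpression, and the group TNs_miR-153_OE held cells overexpressing miR-153. The labels do not give the vector, its promoter, the cell line or the number of cultures behind each RNA. With 1 array in each of the 2 groups there was no replicate, so no difference has a test, an error between cultures or a p-value.

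Much of the genome between genes is transcribed into long intergenic noncoding RNAs (lincRNAs). They are often spliced and polyadenylated like messenger RNA, are usually less abundant and more cell-type restricted, and do not encode long proteins. Array designers placed probes on such regions from maps of active chromatin and from tiling data, often on both strands because the strand of the RNA was not known. Some lincRNAs act in the nucleus on chromatin or on neighbouring genes, and for many no function is known. A signal in such a region can also come from an unannotated end or intron of a nearby gene.

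All 8 NSPC markers looked for were well above background on both arrays, with a median difference of 0.17 on the log2 scale. Throughout, a difference is the log2 level on the miR-153 array minus that on the control array, and a level is the log2 signal relative to the array's 75th percentile. The 6 neuron markers were also above background on both arrays, with a median difference of 1.58 and a summed level that went from 4.75 (control) to 6.58 (miR-153). The 6 oligodendrocyte-lineage markers had a median of 1.498 (summed level 4.68 and 6.26), the 5 astrocyte markers 0.61 (4.95 and 5.53) and the 4 fibroblast markers 1.10 (1.86 and 2.85). The 4 cell cycle genes had a median of -2.44 (6.03 and 3.62), the 4 of 6 pluripotency markers measured on both arrays -1.52 (2.85 and 1.64), and the 4 of 5 mesoderm and endothelium markers so measured -0.43 (4.12 and 3.46). Of 5 endoderm markers, Foxa2 was measured on both arrays (1.44). All 4 blood markers were below background on both. The part of these shifts in the results that follow was not tested. In bulk RNA, fewer cells of a type and less RNA per cell cannot be told apart.

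The probes with the 4 largest differences in each direction, among those of at least median level, are printed first because the results turn on what these short stretches hybridise to. Each is given 5′ to 3′ as the array carries it, with its mm9 position. Capitals mark the hexamer AATAAA, which in messenger RNA lies shortly before the poly(A) tail. It was present in 1 of these 8 probes.
Near Borcs8, higher, chr8:72671395-72671454, plus strand: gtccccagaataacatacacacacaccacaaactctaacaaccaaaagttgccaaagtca
Near Zfp944, higher, chr17:22422434-22422493, minus strand: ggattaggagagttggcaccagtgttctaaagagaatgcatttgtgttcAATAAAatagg
Near Zfp882, higher, chr8:74441797-74441856, plus strand: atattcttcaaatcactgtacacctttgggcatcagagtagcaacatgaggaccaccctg
Near Cep135, higher, chr5:77084913-77084972, minus strand: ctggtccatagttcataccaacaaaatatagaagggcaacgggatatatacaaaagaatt
Near Ptk2, lower, chr15:73231193-73231252, minus strand: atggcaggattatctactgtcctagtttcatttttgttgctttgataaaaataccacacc
Near Pxdc1, lower, chr13:34699230-34699289, minus strand: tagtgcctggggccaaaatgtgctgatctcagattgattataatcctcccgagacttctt
Near Trak1, lower, chr9:121257428-121257487, plus strand: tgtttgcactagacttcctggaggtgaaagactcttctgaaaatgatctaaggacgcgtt
Near Pkp4, lower, chr2:59237815-59237874, plus strand: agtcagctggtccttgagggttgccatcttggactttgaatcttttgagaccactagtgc

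Fewer of these intergenic probes than of other probes gave a signal. A probe is called measured here when it was well above background on both arrays, by the flag of the scanner software. That was so for 4642 of 16194 probes (28.7%), against 57.7% of all other probes, 66.0% of probes with a RefSeq NM_ accession and 47.0% of those with a RefSeq NR_ accession, the class of noncoding RNA. On the control array alone 32.0% were well above background, and with miR-153 the share was 35.1%. A further 9981 were above background on neither array. By region, 1984 of 3543 (56.0%) had at least 1 measured probe.

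Base composition went with detection. Of probes with at least 55% G and C, 47.6% were measured, and of those under 35%, 14.0%. Position within the region went with it less. Among probes up to 500 bases from the 3′ end of their region 26.9% were measured, and among those more than 10000 bases away 30.2%. The hexamer AATAAA stood in 3.92% of intergenic probes and in 12.6% of other probes. Of the intergenic probes that held it, 30.4% were measured.

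Of 4642 measured intergenic probes, 260 (5.60%) were higher by 2-fold or more on the miR-153 array, where 9.02% of all measured probes on the array were. At least 2-fold lower were 547 (11.8%), against 11.5% of all measured probes. The remaining 3835 lay between. Differences ran from -4.11 to 2.96. The median was -0.23 for the intergenic probes, -0.08 for all other probes, -0.01 for NM_ probes and -0.15 for NR_ probes. The share lower was thus near the background and the share higher was below it. Scaling on spike-in RNA gave 391 higher and 406 lower, so that 49.1% of the called probes were higher against 32.2% here. It moved the median of all probes on the array from -0.11 to 0.09 and that of the intergenic probes to -0.03. With normexp background correction, which shrinks differences of dim probes, 82 were higher and 271 lower.

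Since the intergenic probes were dim, they were set against other probes of like level in 10 bins of mean level. Their median difference was below that of other probes in 10 of 10 bins, by 0.03 to 0.22, with a mean gap of -0.13. The share at least 2-fold higher was smaller than among other probes in 9 of 10 bins, and in the dimmest bin no probe of either kind was. The share at least 2-fold lower was also smaller, in 9 of 10 bins. The gap of medians was smallest in the dimmest bin, at -0.40 for intergenic and -0.37 for other probes, and largest in the second brightest, at -0.20 and 0.03. In the brightest bin the medians were -0.29 and -0.14, with 1.29% of intergenic and 6.30% of other probes higher. In the middle of the range, in the sixth bin, 6.47% of intergenic probes and 15.7% of other probes were higher, while 13.4% and 15.0% were lower. The exception on the lower side was the fourth bin, where 17.5% of intergenic and 16.1% of other probes were lower. Against NR_ probes alone, with 7 to 72 in a bin, the intergenic median was below in 7 of 10 bins and above in the dimmest and in both of the brightest, by 0.0145, 0.05 and 0.13. Weighted to the bins of the intergenic probes, other probes would have been 10.3% higher and 13.5% lower. The intergenic probes themselves stood at 5.60% and 11.8%, so the gap was wider on the higher side.

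Probes seen on a single array give only a bound, the bright level against the higher of the dim probe's own signal and the lowest level called above background there (-4.34 for the control array, -4.86 for the miR-153 array). On the control array only, 533 intergenic probes were above background, of which 360 (67.5%) had a bound of at least 2-fold, against 69.2% of all such probes. On the miR-153 array only there were 1038, of which 137 (13.2%) had such a bound, against 18.6% of all. For 362 of the 1038 the bound was not above 1 and shows no difference.

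Neighbouring probes of a region give the closest thing to a technical check for the intergenic probes, which have no repeat spots. Over 1143 names with at least 2 measured probes, the SD of the difference between probes of a name had a median of 0.25, and 0.24 over NM_ probes grouped by name. In 615 names at least 3 probes were measured. The median probe was at least 2-fold higher in 32 of them (5.20%), with 5.74% over all names on the array with at least 3 measured probes. It was at least 2-fold lower in 75 (12.2%), with 10.5% over all names, which include the intergenic ones. Over the 692 names of other kinds alone the shares were 6.21% higher and 8.96% lower. In those 692 names every measured probe was at least 2-fold higher in 16 and lower in 25. In the 615 intergenic names every measured probe was at least 2-fold higher in 16, where 2.45% of all names were, and at least 2-fold lower in 38, where 4.82% were. All probes had the same sign in 401 names (65.2%), and in 59.8% of the 692 names of other kinds. Of neighbouring probes of a name, 1.65% of pairs overlapped and 40.9% lay end to end or up to 10 bases apart, so the probes of a name often read one stretch of RNA. The names described one by one from here on were chosen after their values were seen, except where a rule is stated.

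The region chr4:129497990-129515290_F, 26.1 kb from Ptp4a2, a gene of a protein phosphatase, had the most even difference over a full set of 10 probes. Their control levels ran from -2.06 to 0.86 and their miR-153 levels from -4.14 to -1.59. All 10 were lower, by differences from -2.49 to -2.06 (SD 0.17 between probes). A probe in the same region and on the same strand carries the name 5830469G19Rik, from a cDNA record, and differed by -2.56. The gene probe of Ptp4a2 itself differed by -0.50.

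The 5 probes of chr9:14460976-14488051_F lay within 416 bases of each other, 100.1 kb from Ankrd49. The control array gave levels of 2.42 to 4.41 and the miR-153 array levels of -0.20 to 1.96. All were lower, from -2.61 to -2.43. The gene probe of Ankrd49 differed by -0.05. In chr13:108653722-108654406_R, 137 kb from Zswim6, 3 of 3 probes fell between -3.05 and -2.68, which made it the lowest median of the names with at least 3 measured probes. The control levels there were -0.09 to 0.53 and the miR-153 levels -3.07 to -2.53, while the probe of Zswim6 differed by -0.11.

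On the higher side, chr8:74431707-74442440_F led the same names with a median of 2.05. It lies beside Zfp882, a zinc finger gene on the same strand. Its 5 probes stood between -3.71 and -1.10 in control cells and between -1.13 and 0.95 with miR-153, with differences from 1.4998 to 2.58. A pair of Zfp882 probes measured there differed by 1.96 and 2.26, so the region and the gene moved alike.

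The name chr3:034856791-034869544 comes next, with a median of 2.02. Its probes map outside the span it names, to chr3:34575851-34576482 on the plus strand, 25.1 kb from Sox2, which encodes a transcription factor of neural progenitors. Levels were -2.51, -2.50 and -0.80 in control cells, against -0.35, -0.48 and 1.20 with miR-153. The 3 differences were 2.16, 2.02 and 2.00, while Sox2 differed by 0.29. An unnamed probe on the same strand, not part of the name, lies beyond that stretch at chr3:34579564-34579623 and differed by 0.02.

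Of the 54 names with every measured probe past 2-fold, 16 rest on at least 4 measured probes, 6 of them higher and 10 lower. Among the lower ones were chr9:68349343-68411643_R, with 4 probes from -2.69 to -2.35, chr2:155269145-155303251_R with 4 from -2.26 to -1.92, and chr15:68161768-68193518_R with 5 from -2.25 to -1.07. The 5 of chr6:127111250-127142925_F ran from -2.27 to -1.004, the 5 of chr10:117021051-117038683_F from -1.64 to -1.36, the 4 of chr5:35975265-35982561_F from -1.80 to -1.55 and the 4 of chr5:23195569-23218551_R from -1.298 to -1.13. Among the higher ones, the 5 of chr2:35828611-35838083_R, 58.2 kb from Ndufa8, ran from 1.20 to 1.82, and 3 further names lay on X.

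In chr14:105987405-106063477_R, 270 kb from Spry2, a gene of an inhibitor of growth factor signalling, 7 of 10 probes were measured. Their levels ran from -3.33 to -0.72 in control cells and from -1.84 to 0.85 with miR-153. All 7 were higher, by 1.49 to 1.97. The other 3 probes lie together at the low-coordinate end and were above background on neither array. A same-strand probe for Gm6145 differed by 0.37, and Spry2 by -0.35.

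A fixed rule of size took 12 measured probes at each end, among those of at least median level. The top one, in chr8:72663625-72673010_F, went from -3.47 in control cells to -0.96 with miR-153, a difference of 2.51 or 5.70-fold. It stood apart in its own region, where the 6 other measured probes differed by 0.42 to 0.85 and the probe of Borcs8, a gene of lysosome positioning, by 0.34. The second, at 2.42 near Zfp944, was the only one of 5 probes of its name measured. The probe near Cep135, a centriole gene, differed by 2.26 and its only partner by 2.24. An array probe for A730089K16Rik on that strand differed by 1.97, but it overlaps the probe at 2.26, so part of that agreement is built in. Cep135, on the other strand, differed by -0.75. The rest, with their distance to the nearest measured gene probe, were 4.09 kb from Pura (2.24), 408 kb from Mettl15 (2.17), 110 kb from Zfp236 (2.17), 19.3 kb from Srsf1 (2.11) and 15.5 kb from Rhof (2.03), with the probes beside Zfp882 and by Sox2 already given. Other measured probes of the names nearest to Pura and Mettl15 differed by -0.53 and -0.14, so these rest on a single probe.

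The most lower probe, chr15:73231193-73231252, went from 0.44 in control cells to -3.67 with miR-153, a difference of -4.11 or 17.3-fold. Its only partner was above background on the control array alone, at least 20.02-fold higher there. Ptk2, the gene of focal adhesion kinase, lies 80.0 kb away and differed by -1.59. In chr13:34693404-34717987_R, 20.5 kb from Pxdc1, the measured probes differed by -3.98 and -1.61, and the other 3 of its 5 probes were above background only on the control array, at least 16.4-fold to 32.3-fold higher there. Pxdc1 differed by -0.41.

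The probes of chr9:121256738-121257487_F, 105 kb from Trak1, a gene of mitochondrial transport, differed by -3.74 and -3.10, and the third was above background on the control array only. The probe near Pkp4, a plakophilin gene, differed by -3.59, and its other measured probe by -0.46. A pair of regions less than 3 kb apart on chromosome 16, chr16:64820905-64822069_R and chr16:64823448-64824632_R, had 1 measured probe each, at -3.43 and -2.98. Of their other 4 probes, 3 were above background only on the control array, at least 5.09-fold to 18.1-fold higher there, and 1 on neither array. The other most lower probes had as nearest measured gene Larp7 at 204 kb (-3.22), Nek7 at 559 kb (-2.96) and Sox4 (-2.82). Sox4, which encodes a transcription factor of young neurons, lay 95.8 kb from its probe and went the other way, at 1.32.

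Of those lower probes 1 lies downstream of Myc, the growth-promoting transcription factor gene, where several names overlap. In chr15:61984389-62102500_F a probe 253 kb from Myc went from -0.35 to -3.62, a difference of -3.27, while the other 2 measured probes of the name differed by -1.39 and -0.33. The 3 probes of chr15:62046023-62082530_F differed by -2.27 to -1.26 and the 3 of chr15:62090565-62091770_F by -2.47 to -1.85. Unnamed array probes on the same strand there differed by -2.89 and -1.47, and Myc by -0.31. The unnamed probe at -1.47 lies inside the stretch covered by the 3 probes of chr15:62046023-62082530_F. It overlaps them, so it is not a separate reading. On the opposite strand of the first region, 5 measured probes had a median difference of 1.11 and ranged from -0.80 to 1.24.

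The largest bounds toward the miR-153 array were all on a stretch of chromosome 5 that holds genes of the Speer family. In chr5:14943275-14944205_F both probes were above background only there, at least 34.6-fold and at least 19.9-fold higher. In chr5:15146475-15170100_F all 4 probes were, by at least 29.9, 26.1, 16.2 and 2.17 times. Of these 6 probes 4 share a run of at least 25 bases with another probe of the array, so copies of this sequence cannot be told apart and the 2 names may report the same RNA. Over all intergenic probes 401 (2.48%) share such a run. Speer4d, 39.03 kb away, differed by -0.66, and Pclo, 80.7 kb from the first name, by -0.95. The largest bounds toward the control array were those near Pxdc1, Ptk2 and on chromosome 16 given above.

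Over all intergenic probes with a mapped position, the forward strand had 27.3% of 8153 probes measured and a median difference of -0.24, and the reverse strand 30.1% of 7923 and -0.22. Of 1061 regions with probes to both strands, 395 (37.2%) had a measured probe on each, 469 (44.2%) on 1 strand only and 197 on neither. In the 395, the strands differed in the same direction in 244 (61.8%), and the gap between the strands had a median of 0.49. The gap was at least 1 in 86 regions and at least 2 in 16. In 4 regions the strands went opposite ways, each by at least 2-fold. Over the 151 regions with at least 2 measured probes on each strand, the differences of the strands had a Pearson r of 0.13 across regions, which share both arrays.

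The 5 regions with the widest gap were named by rule. In chr6:112552041-112560067 the gap rests on several probes on each side. On the forward strand 5 probes went from between 0.35 and 3.20 in control cells to between 1.07 and 3.79, differences of 0.58 to 0.74. On the reverse strand 3 probes went from between -2.07 and -0.48 to between -4.55 and -2.99, differences of -2.52 to -2.20. Rad18, a DNA repair gene 11.3 kb away on that reverse strand, differed by -2.35. In chr6:83368261-83407280, 20.9 kb from Tet3, a gene of DNA demethylation, 3 forward probes differed by -0.14 to -0.02 and 2 reverse probes by -2.80 and -2.77. In chr10:39383665-39442690 the single forward probe differed by 0.51 and 2 reverse probes by -2.67 and -1.85.

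In the other two regions of this set the gap rests on fewer probes. In chr8:124355710-124401160, 1 forward probe differed by 1.14, and 3 reverse probes had a median of -2.27 with a range from -2.47 to 1.32, so the reverse strand was not uniform. In chr17:21785442-21801542 the forward probe differed by 1.95 and the reverse probe by -1.28, at levels between -4.65 and -2.30. The letters of 1 probe from each strand of these 2 regions are given to show that they lie apart and are not complements of each other.
Near Slc7a5, plus strand, chr8:124397799-124397858: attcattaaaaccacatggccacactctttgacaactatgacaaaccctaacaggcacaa
Near Slc7a5, minus strand, chr8:124397602-124397661: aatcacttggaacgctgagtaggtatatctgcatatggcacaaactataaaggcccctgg
Near Zfp983, plus strand, chr17:21799622-21799681: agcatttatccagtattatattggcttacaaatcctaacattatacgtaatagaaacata
Near Zfp983, minus strand, chr17:21798459-21798518: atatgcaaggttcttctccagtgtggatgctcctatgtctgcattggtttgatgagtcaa

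Intergenic probes were compared with the nearest gene probe by distance and strand. Each was paired with the nearest measured NM_ probe within 100 kb, which gave 3586 pairs. The direction was the same in 54.5% of pairs, and Pearson's r of the differences was 0.11. For NM_ genes paired with the nearest other NM_ gene the values were 52.0% and 0.09 over 14094 pairs. For the 129 pairs up to 1 kb apart on the same strand, 76.0% had the same direction and r was 0.80. These pairs come from 48 genes, with up to 8 probes of a gene, so they are not independent. Some lie less than a probe length from the gene probe, as by Man1a2, Kifc1 and Acad12, so the probes overlap. Agreement in such pairs is built in and cannot show that a separate RNA moved with the gene. Pairs without overlap were not counted apart. On the same strand at 1 to 5 kb the share with the same direction was 51.9% (287 pairs, r 0.28). At 5 to 20 kb it was 57.3% (667 pairs, r 0.11) and at 20 to 100 kb 54.5% (979 pairs, r 0.10). On the opposite strand up to 1 kb apart it was 61.9% of 42 pairs, with r 0.05. NM_ genes up to 1 kb from the next on the same strand gave 17 pairs only, 64.7% of one direction and r 0.41.

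Among the same-strand pairs up to 1 kb, probes by Kifc1, a mitotic motor gene, differed by -1.76 to -1.63 and Kifc1 by -1.72. Probes by Nab1 differed by -1.31 and -1.26, and Nab1 by -1.21. Probes by Camsap1, a microtubule-binding protein gene, differed by 0.97 to 1.55 and the gene by 1.35. The 3 probes by Acad12 differed by 1.12 to 2.10 and the gene by 1.92. The sets by Kifc1 and Acad12 include probes that overlap the gene probe. The 7 by Plekha8 differed by 0.46 to 0.84 and the gene by 0.55. There were exceptions, as by Nudt3, where 3 probes differed by -0.84 to -0.47 and the gene by 0.38.

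A related view is given by probes of other kinds that lie inside a named region. Of 4607 names with a strand, 876 held another array probe on the same strand, and 3277 (71.1%) held none on either strand. Where both were measured, the medians had the same direction in 235 of 336 names (69.9%, r 0.57) on the same strand and in 129 of 235 (54.9%, r 0.06) on the opposite strand. On the same strand some of the other probes overlap intergenic probes of the name, so part of that agreement is built in. Intergenic probes in names without such a same-strand probe were measured in 26.5% of cases, with a median of -0.26, 4.43% higher and 11.9% lower. In names with one the values were 37.7%, -0.12, 8.78% and 11.6%. The difference between these sets was not tested.

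Intergenic probes near genes of neural transcription factors were counted next. For a list of 103 neural and temporal factors, 84 measured probes lay within 100 kb of 25 of the genes. Of these 3 were higher (3.57%) and 6 lower (7.14%), with a median of -0.17, beside 5.60% and 11.8% of all measured intergenic probes and 9.02% and 11.5% of all measured probes. The difference was not tested. The 3 higher were the probes near Sox2. The lower were 3 near Gsx2, 2 near Sox4 and 1 near Emx2, at -2.26, while the gene probes of Sox4 and Emx2 differed by 1.3006 and 1.05. Both Gsx2 probes were seen with miR-153 alone and were too dim to give a bound. The nearest members were 4 probes by Pou3f3, a POU factor of cortical progenitors, on the same strand. They went from -3.26, -1.04, -0.56 and -0.18 in control cells to -2.97, -0.36, -0.21 and 0.43, differences of 0.30 to 0.67, while Pou3f3 differed by -0.14. By Pou3f1 3 probes differed by -0.33 to 0.38. By Lmx1b, a factor of the midbrain, 5 probes on the opposite strand differed by 0.31 to 0.99, and Lmx1b by -0.76. No probe of these 12 passed 2-fold.

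Known long noncoding RNA genes were treated in the same way with a narrower window. For a list of 52 names, of which 24 were found on the array, 57 measured probes lay within 20 kb of 11. Of these probes 7 were higher (12.3%) and 10 lower (17.5%), with a median of 0.02, beside 9.02% and 11.5% of all measured probes. Neat1 and Malat1 were on the list, but the array's NEAT1 and NEAT2 probes were not matched to them. The locus of 20 measured probes that spans those, none past 2-fold, is not in these counts, so the shares hold for the matched names only. Few genes carried the calls, with 5 by Nespas, 4 by 6720401G13Rik and 3 by Gas5, and the difference was not tested. Pvt1 and Sox2ot were on the list, and no measured probe was assigned to either. Whether the probes downstream of Myc and near Sox2 described above belong to them was not tested. The 19 probes near Tug1 ranged from -1.22 to 0.90, and 1 of them was past 2-fold. Norad, an RNA that binds Pumilio proteins, had 3 probes at 4.15, 4.56 and 3.54 in control cells and 4.74, 5.05 and 3.99 with miR-153, differences of 0.45 to 0.59, and the 4 probes named Norad differed by 0.0043 to 0.63. By Gas5, host gene of small nucleolar RNAs, 5 probes on both strands differed by -1.48 to -0.42 and 3 were lower. Its own 3 probes differed by -1.06 to -0.48.

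The lower set also held 5 of 7 probes by Nespas, an antisense RNA of the imprinted Gnas cluster. On its strand 4 of 5 measured probes stood at -1.2965 to -0.93 in control cells and at -3.23 to -2.76 with miR-153, and the fifth differed by -0.14. The Nespas probe stood above background in control cells alone, where it was higher by at least 2.20-fold.

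The probes by Airn, the noncoding RNA of the imprinted Igf2r cluster, were mixed. On its strand 4 were measured, with differences of -1.75, -0.70, -0.97 and 1.97. All 5 probes of chr17:012941161-012944859, which map to chr17:12944295-12944639, were above background in control cells but not with miR-153. Control levels were -2.71, -2.59, -3.04, -2.51 and -1.51, at least 3.53-fold to 10.2-fold above the miR-153 array. Of 4 probes named Airn, the one beside them was at least 33.4-fold higher on the control array, another was measured and differed by -0.93, and the other two were above background on neither. Of 6 probes by Mirg, in the imprinted Dlk1-Meg3 cluster, 2 were higher, at 2.14 and 1.51, and 4 lay between -0.36 and 0.14.

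Loci were built by joining measured intergenic probes of either strand less than 50 kb apart, which gave 1303 loci, of which 442 had a single probe. The loci with the most measured probes showed small differences. The largest had 23 probes in 29.6 kb by Zfp652, with a median of -0.42 and 1 lower. A locus at chr17:39980297-39985688 had 20 probes, 10 to each strand, all between -0.82 and -0.03. It was bright, with forward probes up to 8.03 in control cells and an unnamed array probe there at 9.66. Which RNA these probes read was not tested, so it may not be a lincRNA. The 20 probes at chr19:5795752-5845497 spanned probes that the array names NEAT1 and NEAT2, nuclear RNAs, and ranged from -0.72 to 0.81. The NEAT2 probes differed by -0.36 to -0.10 and the NEAT1 probes by -0.03 to 0.67.

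With 19 probes each, 3 loci tied for the last places. The one by Borcs8 had a median of 0.61, with its forward strand at 0.69 and its reverse strand at 0.14, and 3 probes higher. The one at Tug1 had a median of 0.07. The one by Zbtb20, a transcription factor gene, had a median of 0.01, and none of its probes passed 2-fold.

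By chromosome, X held larger shares of probes past 2-fold than the autosomes together. Of 167 measured intergenic probes on X, 30 were higher (18.0%) and 28 lower (16.8%), against 5.18% and 11.5% of the 4440 on autosomes. Among other probes on X the shares were 9.77% and 12.05%. The medians were -0.15 on X and -0.23 on autosomes. Among autosomes the share higher ran from 1.75% on chromosome 7 to 8.54% on chromosome 17, and the share lower from 4.44% on chromosome 11 to 18.7% on chromosome 9. These shares count probes, many of which share a locus, and no test was made.

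Counted by locus, 22 of 44 loci on X (50.0%) held a probe past 2-fold, and 28.5% of 1259 autosomal loci did. A higher probe was found in 11 of the 44 X loci and in 10.1% of autosomal ones, and a lower probe in 12 (27.3%) and in 19.7%. The median of the locus was at least 2-fold higher in 6 X loci (13.6%) and 3.18% of autosomal loci, and at least 2-fold lower in 3 (6.82%) and 8.42%. A locus with probes both ways counts in each.

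Few loci held most of the X probes past 2-fold. By Rbmx, the gene of an RNA-binding protein, 10 of 12 probes at chrX:54636817-54637638 were higher. The 5 of chrX:54627918-54638568_R went from between -0.60 and 1.25 to between 0.97 and 2.79, differences of 1.27 to 1.57, while Rbmx, about 2 kb away, differed by 0.11. At chrX:165807653-165807952, 57.9 kb from Hccs, all 5 were higher, by 1.05 to 1.59. In the region of Firre, a nuclear noncoding RNA of X, 4 of 7 probes were higher. They belonged to chrX:47893703-47996700_R, with differences of 1.497 to 1.71. The array names 3 probes there 6720401G13Rik, an earlier symbol of Firre. Both measured ones differed by 2.34 and 0.38, and the third, matched to Firre in RefSeq, was above background on neither array. In the other direction, 10 of 13 probes at chrX:91000519-91004339, 5.89 kb from Pcyt1b, were lower, with a median of -1.63, and 5 of 9 at chrX:102568516-102586158, with a median of -1.43. Pcyt1b differed by 1.13.

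Last, the letters of the probes were searched for the site of the overexpressed microRNA. The mature sequences, from RefSeq on GRCm38.p6, are shown with the seed, bases 2 to 8, in capitals.
mmu-miR-153-3p: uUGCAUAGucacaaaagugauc
mmu-miR-153-5p: gUCAUUUUugugacguugcagcu
The site, the reverse complement of the 3p seed, is CTATGCA. It stood in 49 intergenic probes (0.303%) and in 0.350% of other probes. Of the 49, 14 were measured, with a median difference of -0.18, 1 higher and none lower. Of 69 measured other probes with the site, 15.9% were lower, against 11.4% of all other measured probes. For comparison, the seed itself in DNA letters, TGCATAG, which is not the site, stood in 0.377% of intergenic probes and 0.253% of other probes. Of its 60 measured other probes 18.3% were lower, and of its 9 measured intergenic probes 22.2%. The probes cover a small part of each RNA, so the number of sites in the RNAs was not measured.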

How the data were processed

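Both groups were read on 1-colour Agilent arrays, and the authors deposited the scanner intensities, extracted with Feature Extraction 10.7.3.1 (version from the submitters' processing notes). The column used holds a linear intensity after background subtraction, per the file headers. The series table of the authors holds the same intensity divided by a constant per array (381 and 485) and served as an alternative. Both arrays lay on 1 slide, per the file headers. The 75th percentile of signal was 435 (control) and 549 (miR-153), with a background of 42 and 41.5. Of 59305 non-control spots, 52.5% and 55.6% passed the flag for signal well above background.

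Levels were log2 signal minus the 75th percentile of the array over non-control spots. Spots with an outlier flag were left out and repeat spots averaged. No intergenic probe was flagged or saturated. Positions are those of the files, on mm9, counted from 1. The 118 intergenic probes without a mapped position entered counts but no comparison by strand or chromosome. Other probes were matched to RefSeq symbols of GRCm38.p6, for names only (26296 matched, 13184 kept the array's name).

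A fixed fold of 2 marked differences, with no test. The number of arrays limits precision. Groups came from the sample titles. The members, lists, rules and alternatives were chosen with earlier results of these data known. Named probes were the 12 highest and 12 lowest differences among measured members of at least median level, the 4 largest bounds each way, the 5 widest strand gaps, the 5 loci with the most members (6 with ties), and up to 12 members nearest to a neural factor gene (100 kb) and to a known noncoding RNA gene (20 kb). Other names, the probes inside regions, the X loci, the motifs and the shared runs were chosen after values were seen. The alternatives were normexp (limma 3.58.1, R 4.3.3, offset 50), quantile, spike-in and lowess scaling, the series table, flagged spots kept, other filters on dim probes, folds of 1.5 and 3, and other bins, windows and gaps. The code (Python 3.11.15, numpy 2.4.6, pandas 2.3.3, statsmodels 0.14.6) was tested on simulated data with known differences.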

Additional observations from a re-analysis of the deposited data

How the results depend on the processing

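No paired analysis was possible because each group is 1 array. Normexp background correction gave 82 probes higher and 271 lower, spike-in scaling 391 higher, and lowess scaling 52.5% of probes with the direction of the nearest gene. With no filter on dim probes all 16194 entered, with 1114 higher, 2252 lower, a median of -0.50, 1123 loci of at least 5 and a forward minus reverse gap of 0.0002, against -0.02 in the main setting, a sign with no weight at this size. With bright probes only, 912 entered, with 41 higher, 64 lower, 57.4% with the direction of the nearest gene and 41 such loci. A fold of 1.5 gave 555 higher and 1275 lower, and a fold of 3 gave 70 and 247. The share with the gene's direction was 56.5% in a 20 kb window and 60.8% where both differed at least 1.5-fold. The cause of these changes was not tested beyond what each setting does. The other 76 values stayed within the limits used, which does not mean that they were unchanged. The median of the intergenic probes was -0.03 with spike-in and -0.11 with lowess scaling, against -0.23 in the main setting. Probes at least 2-fold lower numbered 406 with spike-in and 451 with lowess scaling, against 547. Of the 24 probes named as most higher or lower, 24 stayed past 2-fold under every scaling and background setting, with a smallest size of 1.35. They were chosen as the largest differences in the main setting, so this is not separate support for them. The series table and keeping flagged spots leave the intergenic values unchanged by construction. No called probe changed sign. Most intergenic probes lie close to background, where a difference is least certain, and 1 array per group gives no spread between cultures.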

Other observations

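Of the 585 measured probes in regions up to 1000 bases long, 15.0% were at least 2-fold lower and 3.59% at least 2-fold higher, against 10.6% and 7.75% in regions of 1000 to 10000 bases, 11.4% and 5.34% in those of 10000 to 50000 bases and 12.2% and 4.21% in longer ones. From 35% G and C upward, calls both ways were fewer at higher G and C. Among probes of 35 to 45%, 7.88% were higher and 15.6% lower, with 4.84% and 11.4% at 45 to 55%. At 55% and over the shares were 2.88% and 5.77%. Of the 62 measured probes under 35%, 9.68% were higher and 11.3% lower, so the lower calls did not follow that order there. These are shares of probes on 1 pair of arrays, and the differences were not tested.

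The 35 measured probes without a mapped position had a median difference of -0.43.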
